A study of Mus musculus with 12 samples.

Results

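The genes described here are the mouse genes that attach ubiquitin to proteins, hold the attaching machinery together or remove it again, taken by symbol: every gene whose symbol begins with Ube2, with Cul and a number, or with Usp and a number. The rule takes 101 of the 23420 gene symbols in the deposited tables, and no measured value entered it. Of these, 37 are Ube2 genes, 8 are cullins and 56 are Usp genes. The values are 3′ tag counts from whole livers of 12 mice, 3 for each sex and genotype, collected at Zeitgeber time (ZT) 10, which is 10 hours after lights on. The groups were wild type females (WTF, mice 1089, 1090 and 1091), Siah2-/- females (KOF, mice 1070, 1104 and 1105), wild type males (WTM, mice 1055, 1086 and 1087) and Siah2-/- males (KOM, mice 1075, 1076 and 1081). Where 3 values of a group are listed, they follow this order of mice. All mice were C57BL/6, about 20 weeks of age and fed normal chow. The knockout is a whole-body one, not limited to hepatocytes, and both genotypes were kept as related lines that began from intercrossed heterozygotes. The study describes individual livers, while the sample labels speak of RNA pooled from 3 mice, and each library was treated here as 1 mouse.

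Ubiquitin is passed along a chain of enzymes: an E1 activates it, an E2 conjugating enzyme (the Ube2 genes) carries it, and an E3 ligase places it on a substrate. SIAH2 is a RING ligase, which binds an E2 of the UBE2D or UBE2E type and the substrate at once. Cullins are the scaffolds of another class of RING ligases, which change the E2 and the substrate receptor they hold, and which are switched on by NEDD8, a ubiquitin-like modifier. The Usp genes encode the largest family of deubiquitinases, proteases that cut ubiquitin off again. In the liver, ubiquitin turnover sets the levels of clock proteins such as the PER, CRY and REV-ERB proteins, of sterol-regulated enzymes in the endoplasmic reticulum and of hypoxia factors. A few symbols are taken by the rule although their products do other work: Usp6nl encodes a GTPase activator, Ube2cbp an E3-like protein, and Usp39 a splicing factor.

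Libraries held between 1293688 and 4056144 reads counted on genes, of which the 101 genes together took between 0.336% and 0.389%. All 8 listed hepatocyte markers were detected, with a summed level between 31941 and 55945 CPM, the counts of a gene scaled to a common library total after adjustment by TMM factors. Siah2 itself stood at 13.6 ± 2.96 CPM (SD, n = 3) in WTF, 10.7 ± 1.57 in KOF, 21.8 ± 5.18 in WTM and 13.9 ± 4.08 in KOM. The sources used here do not state whether its 3′ tags lie inside the deleted part, and the reads therefore cannot check the genotype labels. Females and males are in separate tables with separate runs of sample numbers. The sources used here do not state whether libraries of both sexes were handled together, and an effect of handling was not tested.

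Of the 101 genes, 94 had at least 1 count and 72 (27 Ube2, 6 cullins and 39 Usp) passed the filter on low counts over the 4 groups. The 7 genes at 0 in all 12 libraries were Usp44, Usp17lb, Usp17lc, Usp17ld, Usp17le, Ube2dnl1 and Ube2dnl2. A further 22 had too few counts to test, at most 89 over all libraries together. These were Ube2c, Ube2s, Ube2t, Ube2e1, Ube2v1, Ube2d2b, Ube2cbp, Ube2ql1, Cul7, Cul9, Usp9y, Usp11, Usp12, Usp13, Usp17la, Usp26, Usp29, Usp35, Usp43, Usp49, Usp50 and Usp51. Ube2e1 and Ube2s had 10 counts each and Ube2v1 had 9. The sources used here do not state how reads shared with near-identical copies were counted, and 4 adult hemoglobin rows hold 0 counts in all 12 libraries, so a low count of a gene with close copies is uncertain. Usp13, a deubiquitinase described as a partner of SIAH2, had 8 counts and could not be compared. Usp9y, the only gene here on the Y chromosome, had 1 count, in WTM 1086. Since each transcript gives 1 tag at its 3′ end, the levels compared between genes below were not divided by length.

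Among the E2 genes 1 gene led. Ube2d3, a general E2 that serves many RING ligases including SIAH2, had a mean of 464 CPM over the 12 mice and ranged from 403 to 657 CPM, which was 24.7% of the summed level of all Ube2 genes. Ube2r2, the E2 that extends chains on cullin ligases, followed at 242 CPM, then Ube2b, a partner of the RAD18 and RNF20 ligases, at 162 CPM, Ube2z, which takes its charge from the second ubiquitin E1 UBA6, at 137 CPM, and Ube2h at 124 CPM. The close relatives of Ube2d3 were far lower, with Ube2d2a at 73.1 CPM and Ube2d1 at 13.3 CPM, and in no mouse did either reach the lowest value of Ube2d3. Of the UBE2E type, Ube2e3 stood at 46.0 CPM and Ube2e2 at 39.5 CPM. Ube2n, the E2 for chains linked through lysine 63, had 11.4 CPM. Of the E2 enzymes for other modifiers, Ube2l6 (ISG15) had 31.1 CPM, Ube2m (NEDD8) 23.9 CPM and Ube2f (NEDD8) 21.4 CPM.

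The cullins were dominated by Cul4a, the scaffold that binds DDB1 and its receptors and lies at chr8:13105623-13147940 (GRCm38). Its mean of 184 CPM was 49.95% of the summed cullin level. Its lowest mouse, at 116 CPM, was above the highest mouse of each other cullin. Cul5, which works with elongin and SOCS-box receptors, had 51.3 CPM, Cul3, the scaffold for BTB receptors, 42.0 CPM, and Cul1, the scaffold of the SCF ligases that bind F-box proteins, 36.1 CPM. Cul4b, the X-linked relative of Cul4a, had 29.0 CPM and Cul2, the scaffold of the VHL ligase that degrades hypoxia factors, 23.4 CPM. Neighbours in this order of 5 overlapped in their ranges over the mice. Cul7 had 69 counts in all and Cul9 had 32.

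The Usp genes were spread more evenly, and the top 3 took 28.2% of the summed level against 46.3% in the Ube2 family and 75.2% among the cullins. Usp5, which takes apart free ubiquitin chains, led with 166 CPM. Usp7, which protects MDM2 and p53 from degradation, had 109 CPM, Usp47 100.1 CPM, Usp10, a p53 deubiquitinase also found with the stress granule protein G3BP1, 84.7 CPM and Usp4 69.1 CPM. Usp19, an enzyme anchored in the endoplasmic reticulum, had 52.1 CPM, Usp22, the deubiquitinase of the SAGA complex, 43.4 CPM, Usp9x 38.1 CPM, Usp14, which sits on the proteasome, 27.9 CPM, Usp30, an enzyme of the mitochondrial outer membrane, 12.2 CPM and Usp18, the ISG15 protease, 5.60 CPM.

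**Figure D1:**
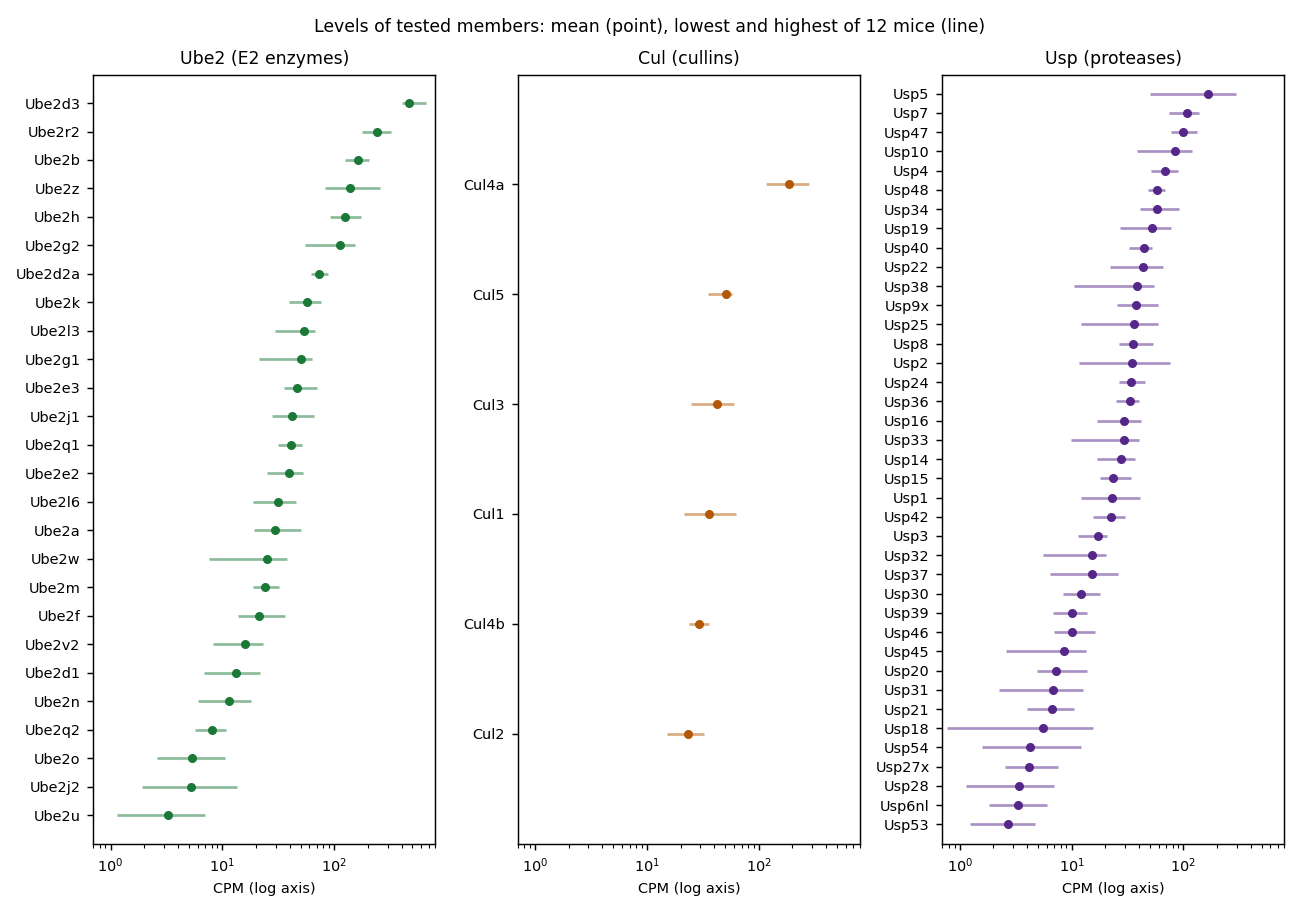
Mean level of 71 genes that passed the filter, in CPM on a log axis, by family (points), with the lowest and highest of the 12 mice (lines). Ube2d3 and Cul4a stand clear of the rest of their families, while the Usp genes form a gradual series.

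For the 58 genes whose mean reached 10 CPM, the highest mouse was at a median of 2.29 times the lowest. The steadiest of them was Ube2d2a, with a ratio of 1.42, and the least steady were Usp2, a clock-controlled deubiquitinase of PER1 and BMAL1, with a ratio of 6.52, and Usp5, with a ratio of 5.86. Neither gene had its highest or lowest value in WTF 1091. Over the set, however, WTF 1091 was the highest or the lowest of the 12 mice for 27 of the 58 genes (46.6%), and no other mouse was at an extreme for more than 12. The same held over all 6717 genes of at least 10 CPM, for 46.0% of which WTF 1091 was at an extreme. In this mouse Usp5 was at 204 CPM against 59.9 and 50.4 CPM in the other wild type females, Usp10 at 112 against 38.6 and 49.8 CPM, and Ube2z at 254 against 83.4 and 85.8 CPM. Its summed Ube2 level of 2290 CPM was above the range of 1745 to 2018 CPM in the other 11 mice. It also had the highest summed endothelial markers, 298 CPM, and the lowest summed bile duct markers, 6.05 CPM, with all 4 markers of each list detected among the libraries. Its TMM factor (0.90) and its share of reads on the ribosomal RNA precursor Rn45s (5.68%) were the lowest of the 12. The part of these measures in the results was not tested. The edgeR calls in comparisons with wild type females are therefore given with and without this mouse. Fold changes of single genes are with all mice unless stated.

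**Figure D2:**
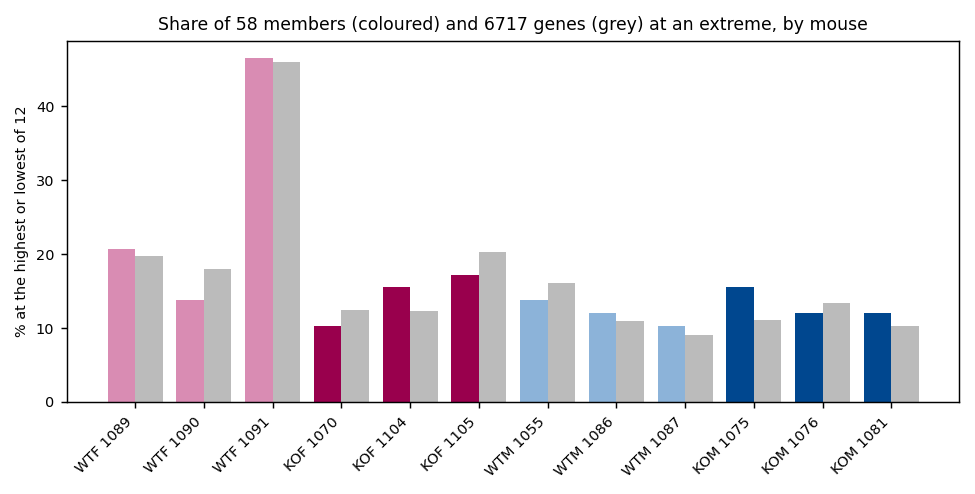
Share of genes for which each mouse was the highest or lowest of the 12, in percent, for the 58 described genes of at least 10 CPM (coloured bars) and all 6717 such genes (grey bars). WTF 1091 is at 46.6% and 46.0%, and the other 11 mice lie between 9.13% and 20.7%.

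The first comparison asked whether loss of SIAH2 altered these genes in females. No gene of the whole table passed the edgeR quasi-likelihood test at an adjusted p of 0.05 (0 of 9465, 0%), and so none of the 68 genes tested here did. At an unadjusted p under 0.05 there were 15 of the 68 (22.1%), 9 higher and 6 lower in KOF, against 15.6% of all genes. The KOF and WTF mice did not overlap for 18 genes, 9 in each direction (26.5%, against 23.3% of all genes, 11.4% higher and 11.9% lower). The median log2 fold change was -0.07 over the 68 genes and -0.03 over all genes tested. DESeq2 called 2 of the genes, Cul4a and Usp25, both higher, where it called 3.7% of all genes. Without WTF 1091, edgeR called 10 of 71 (14.1%, against 9.64% of all genes): Cul4a, Usp25, Usp5, Ube2z and Ube2g2 were higher (5 genes, against 5.21% of all) and Cul1, Ube2j1, Ube2j2, Usp9x and Usp8 lower (5 genes, against 4.43%).

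Cul4a was measured at 116, 148 and 124 CPM in WTF and at 212, 282 and 266 CPM in KOF. Each KOF mouse was above each WTF mouse, and WTF 1091 lay between its group mates. The log2 fold change was 0.96 ± 0.23 (SE), an adjusted edgeR p of 0.114 and an adjusted DESeq2 p of 0.0110, and 0.94 with an adjusted p of 0.0180 by edgeR without WTF 1091. The males were at 149.8, 184 and 227 CPM in WTM and at 201, 164 and 139 CPM in KOM. Within each genotype the sexes did not overlap: each WTM mouse was above each WTF mouse, and each KOM mouse below each KOF mouse. Across genotypes they did, WTM with KOF and KOM with WTF.

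Cul1 stood the other way round. It was at 60.6, 62.7 and 33.4 CPM in WTF and at 29.8, 27.99 and 30.1 CPM in KOF, and the males ranged from 21.5 to 38.7 CPM. Thus 2 wild type females lay apart from the other 10 mice, and WTF 1091 was among the other 10. The log2 fold change of -0.85 ± 0.28 had an adjusted p of 0.197 by edgeR, and without WTF 1091 it was -1.07 with an adjusted p of 0.00705. For the remaining cullins the KOF and WTF ranges overlapped, and the summed cullin level was 265 to 381 CPM in WTF and 403 to 464 CPM in KOF, a sum of which Cul4a was the largest part.

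The letters upstream of both cullins are shown because they are the scaffolds that stood apart in females in opposite directions. The sequences, from RefSeq on GRCm38, are the 250 bases before the first listed transcript start, both on the plus strand, at chr8:13105373-13105622 for Cul4a and chr6:47453482-47453731 for Cul1. Capitals mark matches to the core of the hypoxia element, ACGTG, or to the E-box bound by the clock factors CLOCK and BMAL1, CACGTG, which contains that core.
Cul4a: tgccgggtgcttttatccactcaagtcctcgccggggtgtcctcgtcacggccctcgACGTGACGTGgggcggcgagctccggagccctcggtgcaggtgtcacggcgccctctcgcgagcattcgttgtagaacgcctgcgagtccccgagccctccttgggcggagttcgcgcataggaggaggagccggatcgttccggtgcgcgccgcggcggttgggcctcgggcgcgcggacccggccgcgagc
Cul1: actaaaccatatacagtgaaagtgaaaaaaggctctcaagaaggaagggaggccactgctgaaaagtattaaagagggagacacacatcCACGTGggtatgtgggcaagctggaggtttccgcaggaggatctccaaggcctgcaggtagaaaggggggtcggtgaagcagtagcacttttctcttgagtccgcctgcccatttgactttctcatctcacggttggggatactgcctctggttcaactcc
Cul4a held ACGTG at 2 sites in tandem and no E-box, and Cul1 held 1 E-box. The table lists 3 starts for Cul1, and the windows of the other 2 held none of the motifs searched. Both strands were searched over windows from 250 bases before to 50 after each start, and 80 of the 101 genes had such a window, with 94 windows between them. The E-box was in 10 of the 94 windows (10.6%), against 7.15% of all 32851 windows, and ACGTG in 28 (29.8%), against 19.6%. The D-box TTANGTAA was in 1 of the 94, against 2.32% of all windows, and the core of the REV-ERB element, TAGGTCA, in 1 of the 94, against 2.61%. The Usp25 and Usp2 windows held none of the 4 motifs.

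Among the E2 enzymes, 7 of the 26 tested (26.9%, against 23.3% of all genes) did not overlap between the female groups. Of these, 2 were higher (against 11.4% of all genes) and 5 lower (against 11.9%) in KOF. Of the lower ones, Ube2j1 and Ube2j2 are membrane-anchored E2 enzymes that act on misfolded and sterol-regulated proteins. Ube2j1 was at 46.9, 66.0 and 47.5 CPM in WTF and at 27.6, 33.9 and 35.5 CPM in KOF. Ube2j2 was at 7.58, 13.5 and 8.92 CPM in WTF and at 1.89, 4.05 and 3.61 CPM in KOF. Neither gene's female groups overlapped, and for both genes WTF 1091 stood with its group. The log2 fold changes were -0.74 ± 0.25 for Ube2j1 and -1.71 ± 0.44 for Ube2j2, with edgeR adjusted p-values of 0.197 and 0.122, and of 0.0391 and 0.0362 without WTF 1091. Ube2j2 rests on 6 to 45 counts per library. The soluble E2 of the same pathway, Ube2g2, was at 54.5, 89.7 and 140.5 CPM in WTF and at 144, 123 and 119 CPM in KOF, so that the groups overlapped through WTF 1091.

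Of the E2 types that SIAH2 itself uses, none was called in females by edgeR or DESeq2. Ube2e3 was at 48.7, 49.8 and 70.4 CPM in WTF and at 39.2, 35.7 and 36.7 CPM in KOF, a log2 fold change of -0.61 ± 0.24 with an edgeR adjusted p of 0.255. This fold change was -0.40 without WTF 1091 (edgeR adjusted p 0.190). Ube2d3 was at 426, 415 and 657 CPM in WTF and 473, 471 and 475 CPM in KOF, and the 3 knockouts differed by less than any other group. Ube2h was lower in each KOF mouse than in each WTF mouse (-0.49 ± 0.21, edgeR adjusted p 0.291), and Ube2g1 higher (0.72 ± 0.31, 0.297). Their fold changes were -0.52 and 0.48 without WTF 1091 (edgeR adjusted p 0.0815 and 0.217). Ube2r2, the second most abundant E2, was at 283, 242 and 323 CPM in WTF and at 221, 211 and 176 CPM in KOF, groups that did not overlap. Of the other modifiers' E2 enzymes, Ube2m overlapped at 22.0, 21.6 and 19.1 CPM against 20.6, 22.1 and 22.9 CPM, and so did Ube2l6 at 30.3, 24.9 and 45.9 CPM against 40.0, 36.5 and 26.5 CPM.

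Of the 36 Usp genes tested in females, 13 had a log2 fold change above 0 and 23 below 0. At an unadjusted p under 0.05 there were 7 higher and 1 lower (22.2%, against 15.6% of all genes, 691 higher and 787 lower). The groups did not overlap for 6 higher and 3 lower (25%, against 23.3% of all genes). Without WTF 1091, edgeR called 2 higher and 2 lower of 38 tested (10.5%, against 9.64% of all genes). Usp25, which works on proteins leaving the endoplasmic reticulum for degradation, was at 26.7, 24.6 and 12.1 CPM in WTF and at 40.0, 42.7 and 59.0 CPM in KOF. The highest wild type female was below the lowest knockout, and the 6 males lay between 30.5 and 43.7 CPM. Its log2 fold change was 1.14 ± 0.33, an adjusted edgeR p of 0.147 and an adjusted DESeq2 p of 0.0455, and 0.86 with an edgeR adjusted p of 0.0383 without WTF 1091. Usp33 was at 19.9, 29.4 and 9.87 CPM in WTF and 35.4, 35.4 and 39.7 CPM in KOF, Usp22 at 33.2, 46.2 and 22.0 against 52.8, 65.2 and 54.8 CPM, and Usp14 at 20.2, 23.1 and 19.1 against 35.2, 27.2 and 30.1 CPM. For Usp33 and Usp22 the lowest wild type female was WTF 1091, and their log2 fold changes were 0.88 and 0.75 with it and 0.57 and 0.53 without it. The edgeR adjusted p was 0.267 for Usp33, 0.248 for Usp22 and 0.301 for Usp14, and none of these 3 genes was called without WTF 1091. Usp37, a deubiquitinase of the cell cycle, was at 9.75, 7.202 and 6.37 CPM in WTF and 11.4, 19.5 and 10.8 CPM in KOF (0.84 ± 0.36, edgeR adjusted p 0.291). Its fold change was 0.73 without WTF 1091 (edgeR adjusted p 0.215).

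Usp2 was at 14.4, 44.7 and 19.7 CPM in WTF and at 43.6, 75.5 and 55.4 CPM in KOF. The groups overlapped, because WTF 1090 was just above KOF 1070. The log2 fold change was 1.12 ± 0.41, with an edgeR adjusted p of 0.216 and of 0.146 without WTF 1091. Without WTF 1090 it was 1.74, with an adjusted edgeR p of 0.133 and an adjusted DESeq2 p of 0.00313. Usp2 was also called with no filter beyond 1 count (edgeR adjusted p 0.0146) and by limma-voom with sample quality weights (adjusted p 0.0456). Only 3 of the 18 alternatives called Usp2, and edgeR called it with no mouse left out in turn, the lowest adjusted p being 0.133. Usp9x, an X-linked deubiquitinase, was lower in the knockouts, at 26.0, 25.4 and 26.5 CPM in KOF against 41.9, 46.5 and 37.6 CPM in WTF. All 9 mice of the other groups were above the 3 KOF mice. Its log2 fold change was -0.71 ± 0.23, with an edgeR adjusted p of 0.184, and -0.77 with an adjusted p of 0.0306 without WTF 1091.

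For Usp5 and Ube2z the size of the difference and the call depended on WTF 1091. With all mice, the log2 fold change in females was 0.22 ± 0.47 for Usp5 and 0.11 ± 0.41 for Ube2z, with edgeR adjusted p-values of 0.872 and 0.929. Without WTF 1091 they were 1.16 and 0.87, with adjusted p-values of 0.00705 and 0.0160. Usp5 was at 118, 139.9 and 111 CPM in KOF and Ube2z at 165, 137 and 161 CPM, above the WTF mice 1089 and 1090 and below WTF 1091. Usp8, an endosomal deubiquitinase called without WTF 1091, was at 53.4, 47.7 and 27.7 CPM in WTF and at 32.7, 26.5 and 32.5 CPM in KOF, and with all mice the groups overlapped. Other measures differed between the female groups as well: the summed leukocyte markers (6 of 6 detected) were 12.1 to 14.4 CPM in WTF and 7.73 to 10.2 CPM in KOF, and the summed endothelial markers 195 to 298 CPM and 173 to 189 CPM. Their part in the differences was not tested. In tissue, fewer cells of a type and less RNA per cell cannot be told apart.

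**Figure D3:**
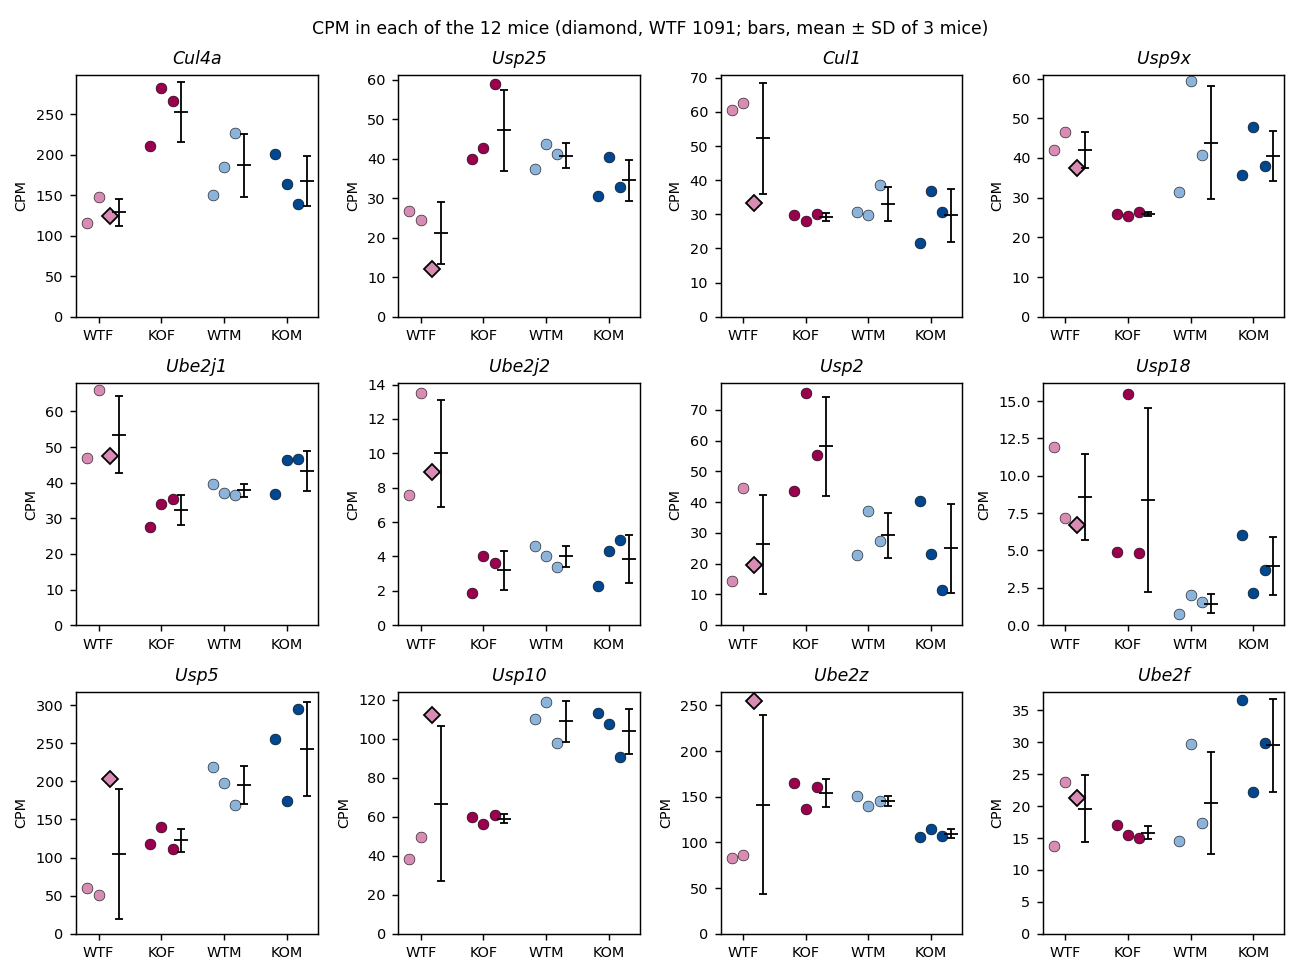
CPM of 12 named genes in each mouse (points; the diamond is WTF 1091), with the mean and SD of the 3 mice of each group (dash and bars). Cul4a and Usp25 have their highest group mean in KOF and their lowest in WTF, whereas WTF 1091 sits with the males for Usp5 and Usp10.

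In males the same question gave no call by either tool, among the 67 genes tested or, with edgeR, among all 8823 (0%). DESeq2 called 0.037% of all genes. At an unadjusted p under 0.05 there were 2 of the 67 (2.99%, against 4.05% of all genes), both lower in KOM. Ube2z was at 151, 139.7 and 145 CPM in WTM and at 106, 115 and 107 CPM in KOM, groups that lay clear of each other (-0.42 ± 0.15). Ube2o, a large enzyme that acts as E2 and E3 at once and is known from red cell maturation, was at 9.94, 10.6 and 7.12 CPM in WTM and at 5.28, 2.60 and 4.19 CPM in KOM (-1.15 ± 0.41). Both had an edgeR adjusted p of 0.9999. The groups did not overlap for 11 of the 67 genes (16.4%, against 8.87% of all genes), 7 higher (against 4.45%) and 4 lower (against 4.42%) in KOM, with log2 fold changes between 0.21 and 0.52 for those higher. The largest of these were Usp37 (19.1, 16.1 and 14.2 CPM in WTM, 26.0, 20.4 and 23.4 CPM in KOM) and Ube2a (19.1, 26.1 and 25.1 CPM, 37.7, 29.1 and 32.04 CPM), an X-linked E2 of DNA repair. Cul2 was at 20.6, 24.1 and 24.1 CPM in WTM and 27.5, 32.1 and 28.8 CPM in KOM. Ube2l6 was lower, at 24.5, 18.7 and 27.4 CPM in KOM against 27.5, 28.1 and 42.7 CPM in WTM, and so was Usp42, at 15.5, 19.1 and 21.7 CPM against 27.5, 25.6 and 22.9 CPM. None of these 5 genes was at an unadjusted p under 0.05. The Usp family sum ran from 1316 to 1496 CPM in WTM and from 1471 to 1501 CPM in KOM.

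Whether SIAH2 loss acted differently by sex was asked of the genotype effect in females less that in males. By edgeR none of the 72 genes passed, against 0.255% of all 9806 genes (0.163% with a higher and 0.0918% with a lower value in females), and 12 of the 72 (16.7%) were at an unadjusted p under 0.05, against 14.1% of all genes. The 5 on the higher side were Usp25, Usp2, Cul4a, Ube2n and Usp33, from 0.90 to 1.40 on the log2 scale. Of the 7 on the lower side 6 were E2 genes, Ube2j2, Ube2a, Ube2j1, Ube2h, Ube2l3 and Ube2r2, and the seventh was Cul2, from -0.59 to -1.69. DESeq2 called 2 genes, against 3.32% of all genes. For Cul4a, the difference was 1.13 ± 0.30 on the log2 scale, with an adjusted DESeq2 p of 0.0157 and an adjusted edgeR p of 0.109. For Usp25 it was 1.40 ± 0.39, with adjusted p-values of 0.0277 and 0.117. In both genes the males differed little by genotype, with log2 fold changes of -0.17 ± 0.19 for Cul4a and -0.26 ± 0.20 for Usp25. For Ube2j1 it was -0.94 ± 0.30 (edgeR adjusted p 0.166), and its KOM mice, at 36.9, 46.4 and 46.6 CPM, lay level with or above its WTM mice, at 39.8, 37.2 and 36.5 CPM. Without WTF 1091, edgeR called 4 of 74 (5.41%, against 5.15% of all genes): Cul4a, Usp25 and Ube2z with a higher (3 genes, against 3.09% of all) and Ube2j1 with a lower change in females (1 gene, against 2.06%).

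**Figure D4:**
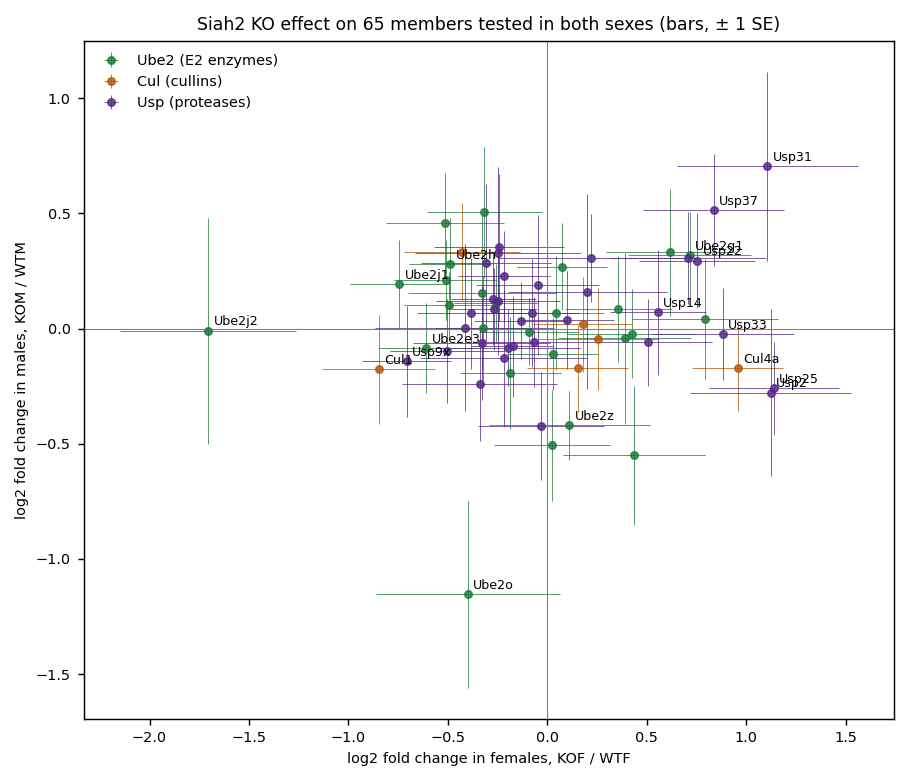
Log2 fold change between Siah2-/- and wild type mice in females (horizontal) and in males (vertical) for the 65 genes tested in both sexes, coloured by family, with bars of 1 SE; genes at an unadjusted p under 0.05 in either sex are named. Cul4a, Usp25 and Usp2 lie far to the right and below 0 in males, and no gene passed the edgeR test in either sex.

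Between wild type females and males, 1 of 71 genes was called (1.41%, against 1.39% of all genes, 0.686% higher and 0.707% lower in females). Usp18, at chr6:121245906-121270917 (GRCm38), was at 11.9, 7.202 and 6.69 CPM in WTF and at 0.765, 2.01 and 1.55 CPM in WTM, from 33, 24 and 21 counts against 1, 4 and 5. Each wild type female was above each wild type male, and the log2 fold change was 2.49 ± 0.51, with an adjusted edgeR p of 0.0433 and an adjusted DESeq2 p of 0.0236. The call was lost when any one of WTF 1089, WTF 1090, WTM 1055, WTM 1086 or WTM 1087 was left out, with edgeR adjusted p-values from 0.0846 to 0.268, and it held without WTF 1091 (0.0145). Summed macrophage markers, of which 8 of the 9 listed are in the tables and all 8 were detected, were 469 to 638 CPM in WTF and 87.3 to 599 CPM in WTM, and leukocyte markers 12.1 to 14.4 and 2.79 to 6.03 CPM. Their part in the difference was not tested. Isg15, whose product USP18 removes, was at 22.4, 15.0 and 8.92 CPM in WTF and at 8.41, 2.51 and 8.97 CPM in WTM (log2 fold change 1.22 ± 0.49, edgeR adjusted p 0.266).

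The wild type sexes also lay apart without overlap for 11 of the 71 genes (15.5%, against 22.7% of all genes), 7 higher (against 11.5%) and 4 lower (against 11.2%) in females. Usp25 and Usp37 were among the lower ones, with log2 fold changes of -0.93 ± 0.31 and -1.04 ± 0.32 and edgeR adjusted p-values of 0.195 and 0.165. Ube2j2, Ube2j1, Ube2e3 and Ube2a were among the higher ones. Ube2j2 was at 7.58, 13.5 and 8.92 CPM in WTF and at 4.59, 4.02 and 3.40 CPM in WTM (log2 fold change 1.38, edgeR adjusted p 0.146). Its KOM mice were at 2.26, 4.34 and 4.93 CPM. The KOF mice, at 1.89, 4.05 and 3.61 CPM, overlapped both male groups for this gene. Without WTF 1091, 5 of 72 genes were called (6.94%, against 7.73% of all genes), Usp18 and Cul1 higher (2 genes, against 3.25%) and Usp5, Usp10 and Ube2z lower (3 genes, against 4.48%) in females. For Usp10 the males were at 110.1, 119 and 98.1 CPM, level with the 112 CPM of WTF 1091 and above the 38.6 and 49.8 CPM of the other wild type females.

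Siah2-/- females and Siah2-/- males, whose libraries do not include WTF 1091, gave the most edgeR calls with all mice of the groups compared. These were 9 of 68 genes (13.2%, against 11.5% of all genes), of which 4, among them Usp2, Cul4a and Ube2z, were higher (against 5.69%) and Usp5, Usp10, Ube2f, Ube2h and Ube2l3 lower (5 genes, against 5.78%) in females. KOF and WTF without WTF 1091 gave 10 of 71 (14.1%, against 9.64% of all genes). DESeq2 called 6, against 9.91% of all genes. The groups did not overlap for 21 of the 68 genes (30.9%, against 30.7% of all genes), 6 higher (against 14.7%) and 15 lower (against 16%) in females. The median log2 fold change was -0.09 over the 68 genes and 0.00 over all genes.

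Usp5, at chr6:124815019-124829484 (GRCm38), was at 118, 139.9 and 111 CPM in KOF and at 256, 174 and 295 CPM in KOM. The log2 fold change was -0.97 ± 0.19, with an adjusted edgeR p of 0.00403 and an adjusted DESeq2 p of 7.61e-05. Usp10, at chr8:119910360-119957560, was at 59.8, 56.3 and 60.8 CPM in KOF and at 113, 108 and 90.9 CPM in KOM. Its log2 fold change was -0.81 ± 0.16, with an adjusted edgeR p of 0.00525 and an adjusted DESeq2 p of 0.000834. Both were called by both tools whichever mouse was left out, but not by edgeR with all 12 libraries in the fit, where the adjusted p was 0.190 for Usp5 and 0.150 for Usp10 and none of the 9 genes was called. In the wild type mice 1089 and 1090 were likewise below each male for both genes, and WTF 1091 was at the male level.

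Usp2 had the largest difference, with 43.6, 75.5 and 55.4 CPM in KOF and 40.3, 23.0 and 11.6 CPM in KOM, a log2 fold change of 1.25 ± 0.34 (edgeR adjusted p 0.0280). KOM 1075 lay just below KOF 1070, and the groups did not overlap. Cul4a was at 212, 282 and 266 CPM against 201, 164 and 139 CPM (0.60 ± 0.17, edgeR adjusted p 0.0385). In wild type mice Cul4a stood the other way, at 116 to 148 CPM in females and 149.8 to 227 CPM in males (-0.50 ± 0.24, edgeR adjusted p 0.362). Ube2z was at 165, 137 and 161 CPM against 106, 115 and 107 CPM (0.50 ± 0.15, edgeR adjusted p 0.0451).

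Of the genes lower in knockout females, Ube2f, the E2 that loads NEDD8 on CUL5, was at 17.0, 15.5 and 15.0 CPM in KOF and at 36.6, 22.1 and 29.8 CPM in KOM (-0.88 ± 0.24, edgeR adjusted p 0.0265). Ube2h was at 99.0, 94.6 and 94.5 CPM against 152, 115 and 174 CPM (-0.61 ± 0.17, edgeR adjusted p 0.0324). Ube2l3, an E2 for HECT and RBR ligases such as parkin, was at 49.8, 39.0 and 29.5 CPM against 63.3, 59.0 and 67.0 CPM (-0.65 ± 0.20, edgeR adjusted p 0.0470). Cul2 and Usp9x were just above the threshold, at -0.72 ± 0.23 (edgeR adjusted p 0.0519) and -0.63 ± 0.20 (0.0505). Usp7 was at 79.0, 89.8 and 98.7 CPM in KOF and at 114, 137 and 128 CPM in KOM, and Usp47 at 95.8, 77.7 and 79.5 against 106, 131 and 96.9 CPM, with edgeR adjusted p-values of 0.0550 and 0.166. The 7 calls other than Usp5 and Usp10 were each lost for some mouse left out. For Ube2z that was any of the 6, with edgeR adjusted p-values from 0.0640 to 0.156. Ube2h held only without KOM 1076 (0.0132) and Ube2l3 only without KOF 1070 (0.0313). Ube2f held without KOM 1076 or KOF 1105 and had an adjusted p of 0.0688 to 0.0994 without the others. Cul4a held without KOM 1075 or KOF 1070 and had 0.0726 to 0.184 without the others. Usp2 held without KOM 1075, KOF 1070 or KOF 1105 and had 0.0803 to 0.133 without the others. Marker sums differed between these groups too. Of the red blood cell list 5 of 7 symbols are in the tables and 4 of those, the hemoglobins, were at 0, which left Alas2, at 8.47 to 19.3 CPM in KOF and 103 to 154 CPM in KOM. The macrophage sum was 347 to 801 CPM in KOF and 109 to 245 CPM in KOM. The part of these markers in the differences was not tested.

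**Figure D5:**
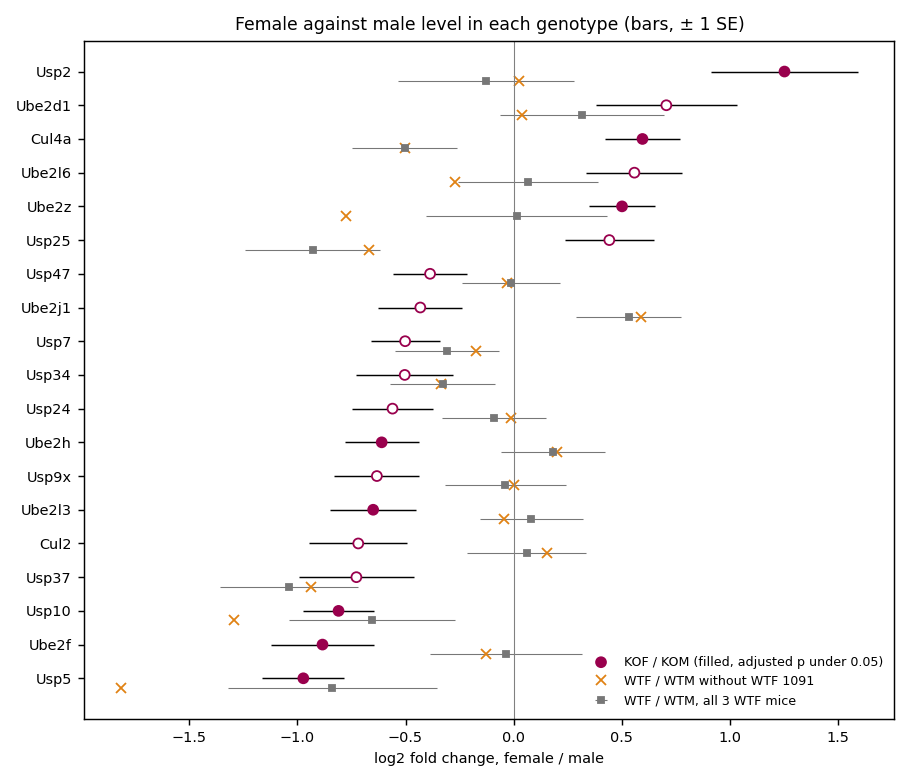
Log2 fold change of females over males for 19 genes at an unadjusted p under 0.05 between Siah2-/- females and males (circles, filled where the edgeR adjusted p was under 0.05, bars 1 SE), with the wild type difference for the same genes with all mice (squares, bars 1 SE) and without WTF 1091 (crosses). Usp5 and Usp10 lie below 0 in both genotypes, but in wild type mice neither was called with all mice (edgeR adjusted p 0.453 and 0.457). Cul4a and Usp25 lie on opposite sides of 0 in the 2 genotypes.

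Sex-linked genes among the set gave no common direction. The 4 tested X-linked genes were Usp9x, Ube2a, Cul4b and Usp27x. Between wild type sexes, Ube2a was at 30.7, 50.4 and 28.03 CPM in WTF and at 19.1, 26.1 and 25.1 CPM in WTM. Usp9x overlapped between them, at 41.9, 46.5 and 37.6 CPM against 31.3, 59.3 and 40.8 CPM, and so did Cul4b, at 25.3, 33.3 and 23.9 CPM against 25.2, 31.2 and 28.5 CPM.

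The other parts of the pathway were read from lists of E1 enzymes, ubiquitin and ubiquitin-like precursors, cullin partners, COP9 signalosome subunits and deubiquitinases of other families. By edgeR, 0 of 10, 0 of 8, 0 of 19, 0 of 8 and 0 of 25 tested genes of these lists were called between KOF and WTF. At an unadjusted p under 0.05 there were 2, 3, 2, 3 and 3, a count that over all genes was 15.6%. DESeq2 called 1 ubiquitin-list gene and 1 cullin partner, against 3.7% of all genes. Leaving out WTF 1091, edgeR called 0 of 10, 1 of 8, 2 of 19, 0 of 8 and 2 of 25, against 9.64% of all genes. The fold changes of single genes given next include WTF 1091. Elongin C (Tceb1), the adaptor on CUL2 and CUL5, was at 88.1, 63.9 and 28.7 CPM in WTF and at 173, 134 and 196 CPM in KOF (1.46 ± 0.37, edgeR adjusted p 0.119). Nedd8 was at 210.1, 193 and 199 CPM in WTF and at 153, 136 and 96.3 CPM in KOF (-0.65 ± 0.24, edgeR adjusted p 0.216), and Rnf7, the RING partner of CUL5, at 48.0, 56.1 and 42.4 CPM against 69.8, 78.1 and 87.9 CPM (0.67 ± 0.23, 0.199). Uba6, the E1 that charges UBE2Z, was at 11.2, 11.7 and 12.4 CPM against 6.49, 7.73 and 6.02 CPM (-0.80 ± 0.31, 0.239). Ddb1, the adaptor on CUL4A, was at 282, 302 and 695 CPM in WTF and 471, 486 and 447 CPM in KOF, and so overlapped through WTF 1091.

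In males none of these lists held a gene at an unadjusted p under 0.05 between the genotypes (0 of 8, 0 of 8, 0 of 19, 0 of 8 and 0 of 25 tested), and edgeR and DESeq2 called none. Between Siah2-/- females and males edgeR called 1 of 25 other deubiquitinases and 1 of 8 ubiquitin-like genes, against the 11.5% of all genes above. Yod1, an OTU protease that acts with the p97 ATPase, was at 17.0, 15.8 and 18.7 CPM in KOF and at 34.3, 33.0 and 30.3 CPM in KOM (-0.92 ± 0.21, edgeR adjusted p 0.0106). Sumo3 was at 284, 222 and 231 CPM against 403, 327 and 406 CPM (-0.62 ± 0.16, edgeR adjusted p 0.0217).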

How the data were processed

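The authors made QuantSeq 3′ libraries from liver RNA, mapped and counted the reads, and deposited raw read counts per gene symbol, unnormalized, in a table for each sex. The submitters' processing notes name STAR, DESeq and mm10, without versions. The sources used here do not state the counting settings, including strand. Columns were matched to mice by mouse number. Each comparison was fitted across all genes with edgeR 4.0.16 in R 4.3.3 (filterByExpr, TMM, two-sided quasi-likelihood test, Benjamini-Hochberg adjustment over all genes tested, threshold 0.05), on the libraries of the groups compared, and all 4 groups for the difference between the sexes. SE is that implied by the test statistic. DESeq2 1.42.0, limma 3.58.1 (voom, with and without sample weights), RLE scaling, no filter beyond 1 count, all 12 libraries in the fit and leaving out each mouse were alternatives. The fits were tested on simulated data. CPM came from 1 TMM scaling over 12 libraries.

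Named genes were drawn from the tested cullins, genes with a textbook tie to SIAH ligases, the clock, hypoxia or other modifiers, the 5 most abundant Ube2 and Usp genes, genes called by edgeR or DESeq2 (also without WTF 1091), and per comparison the 5 largest rises and falls of at least 10 CPM without overlap between groups (for the difference between sexes, at an unadjusted p under 0.05). Not every gene that met the last of these rules is described. Ube2o, Usp27x, Cul7 and Cul9 were named after their values were seen, as were the genes picked from the pathway lists. The set, the lists and the settings were chosen with earlier results of these data known. Gene positions and upstream sequences came from RefSeq on GRCm38.p6. Positions were found for all 101 symbols, and upstream sequences for 80. Results for some genes are not reported here.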

Additional observations from a re-analysis of the deposited data

Results flagged for a closer look

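Cul4a and Usp25 were flagged because DESeq2 called the genotype effect different between females and males, with adjusted p-values of 0.0157 and 0.0277. They were the 2 genes described here that DESeq2 called in this test, against 3.32% of all genes tested. By edgeR the adjusted p-values were 0.109 and 0.117, and over 29 alternatives the differences ranged from 0.94 to 1.28 log2 units for Cul4a and from 1.12 to 1.60 for Usp25, the direction being the same in each. Cul4a was called under 9 of the 29 alternatives and Usp25 under 10. Each of the 3 KOF mice was above each of the 3 WTF mice in both genes, and the KOM and WTM mice overlapped.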

How the results depend on the processing

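With 3 mice a group and 1293688 to 4056144 counts a library, genes of a few CPM rest on few counts. No paired analysis was possible because the groups share no mouse numbers. Counts of called genes among those described here depended on the processing. Between KOF and WTF they were 0 by edgeR, limma-voom and RLE scaling, 2 by DESeq2, 11 with sample quality weights, 4 with no filter beyond 1 count and 3 with all 12 libraries in the fit, and with 1 mouse left out 0 to 10 by edgeR and 0 to 6 by DESeq2, the highest without WTF 1091. For the difference between the sexes they were 0 by edgeR, 2 by DESeq2, 4 with quality weights and 2 with no filter, and 0 to 4 with a mouse left out. Between WTF and WTM they were 1 by edgeR, 0 by limma-voom and 4 with quality weights, and 0 to 5 by edgeR and 0 to 4 by DESeq2 with a mouse left out. Between KOF and KOM they were 9 by edgeR, 0 with all 12 libraries in the fit, and 2 to 6 by edgeR and 2 to 5 by DESeq2 with a mouse left out, the lowest without KOM 1081. Between KOM and WTM each alternative gave 0. The shares of all genes called moved with the processing too. Between KOF and WTF these shares were 0% by edgeR, 3.7% by DESeq2 and 9.64% by edgeR without WTF 1091. For the difference between the sexes they were 0.255%, 3.32% and 5.15% in the same order, and between WTF and WTM 1.39%, 3.74% and 7.73%. Between KOF and KOM they were 11.5% by edgeR and 9.91% by DESeq2.

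Ube2z and Usp5 were the genes whose direction turned. Between KOF and WTF without WTF 1089, Ube2z had a log2 fold change of -0.16 and Usp5 of -0.07 (-0.17 and -0.078 by DESeq2), and without WTF 1090, -0.15 and -0.12 (-0.16 and -0.13 by DESeq2), the highest values with a mouse left out being 0.87 and 1.16, without WTF 1091. Between WTF and WTM, Ube2z was at -0.023 by DESeq2, -0.22 by limma-voom, -0.67 with quality weights, -0.026 with RLE scaling and -0.039 with all 12 libraries. Leaving out WTM 1086, WTM 1087 or WTF 1091 gave -0.01, -0.04 and -0.77 by edgeR, and -0.052, -0.0093 and -0.80 by DESeq2. The highest was 0.29, without WTF 1090. The cause was not tested. Of the values for single genes, 1063 kept their direction and side of the threshold, 81 passed it only under the alternative, 88 lost the call and 19 turned.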
